A study of Mus musculus with 16 samples.

Results

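MicroRNA (miRNA) genes were examined as array signals of their precursor or host transcripts in the inner ear of mice that misexpress 3 of them. A probeset, the set of array probes that reads 1 transcript, was taken when the platform table gave it a single gene symbol starting with *Mir* and a digit or with *Mirlet7*, and when its mean log2 signal was at least 5 in at least 1 of the 4 groups of samples. This rule held for 164 probesets of 161 genes, out of 305 probesets of 300 genes with such a symbol and 34760 probesets on the array. The 164 were therefore chosen by their group means. The other 141 miRNA probesets stayed under 5 in all groups, and 37 more that the platform table assigns to several symbols, a miRNA gene among them, were left out. Among the 164 are 7 probesets of 4 long host transcripts, *Mir100hg*, *Mir17hg*, *Mir670hg* and *Mir99ahg*. Of the 164, 111 reached 5 in all 4 groups, 6 in 3 groups, 41 in 2 groups and 6 in 1 group. Just inside the limit were *Mir98*, *Mir132* and *Mir378a*, with highest group means of 5.02, 5.05 and 5.08. Just outside it were *Mir30c-1*, *Mir448* and *Mirlet7g*, at 4.99, 4.99 and 4.96.

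Total RNA came from the microdissected organ of Corti (OC) at postnatal day 5 (P5), in 5 Tg1MDW/1MDW and 5 WT samples, and from the cochlea at P18, in 3 Tg1MDW/1MDW and 3 WT samples. All mice were on the FVB/NCrl background. Tg1MDW/1MDW mice are homozygous for Tg(GFAP-*Mir183,Mir96,Mir182*)1MDW, in which a human GFAP promoter drives a fragment with the miR-183 cluster, and the line descends from 1 founder. The promoter is active in supporting cells and also in other cells that express GFAP, such as Schwann cells, and the probesets cannot tell transgene transcripts from those of the endogenous genes. Tissue differs along with age, so the effects of age and of dissection cannot be told apart. Samples were grouped by their names. Other label fields contradict these names in age, tissue and genotype. Under those fields, the 5 samples given as 5.5 days old and WT would include 4 named Tg/Tg and 1 named WT. Over all 5, the *Mir182* signals run from 3.89 to 8.64, where 3.89 is that of the sample named WT.

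A miRNA gene is transcribed as a long primary transcript, cut in the nucleus by Drosha with Dgcr8 into a hairpin, exported by Xpo5, cut again by Dicer1 and loaded into an Argonaute protein such as Ago2. The mature strand finds target mRNAs mainly through its seed, which is bases 2 to 8. *Mir183*, *Mir96* and *Mir182* lie in 1 cluster and mark sensory cells, hair cells of the ear among them. Many other miRNAs are named here by the cells they are known from, such as the miR-200 family of epithelia, *Mir144* and *Mir451a* of red blood cell precursors and miR-206 of skeletal muscle.

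The sequences below are those on which the results turn, from RefSeq (GRCm38.p6), with the seed in capitals. Mature sequences were matched for 143 of the 164 probesets. The first set is the product of the transgene and its endogenous cluster, all on the minus strand: miR-183-5p at chr6:30169711-30169732, miR-96-5p at chr6:30169506-30169528 and miR-182-5p at chr6:30165962-30165986. Their seeds of 7 bases differ at 1 position between miR-183 and miR-96, at 1 between miR-96 and miR-182, and at 2 between miR-183 and miR-182.
miR-183-5p: uAUGGCACugguagaauucacu
miR-96-5p: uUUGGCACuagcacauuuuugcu
miR-182-5p: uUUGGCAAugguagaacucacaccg

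The next set belongs to the erythroid pair that differed between genotypes at P18. Both lie on the plus strand, miR-144-3p at chr11:78073047-78073066 and miR-451a at chr11:78073186-78073207.
miR-144-3p: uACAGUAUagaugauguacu
miR-451a: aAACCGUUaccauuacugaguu

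The last set belongs to the genes that were much lower in the cochlea at P18 than in the OC at P5. miR-181a-5p and miR-181b-5p share a seed and each come from 2 genes, on chromosomes 1 and 2, while miR-99a-5p (chr16:77598940-77598961) and miR-100-5p (chr9:41531437-41531458) share another. let-7c-5p lies at chr16:77599672-77599693, miR-204-5p at chr19:22750610-22750631, and a copy of miR-218-5p at chr5:48223966-48223986, all on the plus strand. miR-200a-3p and miR-200b-3p, on the minus strand at chr4:156054911-156054932 and chr4:156055685-156055706, have different seeds.
miR-181a-5p: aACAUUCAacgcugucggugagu
miR-181b-5p: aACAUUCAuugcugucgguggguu
miR-99a-5p: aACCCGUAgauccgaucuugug
miR-100-5p: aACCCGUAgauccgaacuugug
let-7c-5p: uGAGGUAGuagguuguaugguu
miR-204-5p: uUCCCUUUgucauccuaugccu
miR-218-5p: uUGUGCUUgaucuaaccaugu
miR-200a-3p: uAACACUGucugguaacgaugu
miR-200b-3p: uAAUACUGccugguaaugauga

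Hair cell and supporting cell markers were present at both ages, and none of the 9 hair cell or 8 supporting cell markers passed the test between genotypes. The mean log2 signal of the 9 hair cell markers was 7.58 to 7.92 on the P5 Tg1MDW/1MDW arrays, 7.57 to 7.92 on the P5 WT arrays and 7.30 to 7.37 on the P18 arrays. At P5 the Y-linked genes were high on 1 of 5 Tg1MDW/1MDW arrays and 4 of 5 WT arrays, so sex was not balanced. At P18 they had intermediate values, 7.65 to 7.66 in Tg1MDW/1MDW and 7.22 to 7.34 in WT. The *Xist* signal was also intermediate on every array, 9.27 to 9.36 in Tg1MDW/1MDW and 8.96 to 9.09 in WT. Neither overlapped between the genotypes at P18, and the part of this in the P18 comparison was not tested. Array medians were 6.51 to 6.63 at P5 and 6.33 to 6.36 at P18. Lower quartiles were 4.82 to 5.05 at P5 and 4.54 to 4.61 at P18, so both were lower on every P18 array. Of the 141 miRNA probesets under the limit, 109 had all 4 group means below the lowest of these quartiles, so a fall in their signal would hardly be visible. With so few arrays the precision of every value is limited. The p-values rest on 1 spread per probeset, pooled over the samples within all 4 groups. Those for P18 therefore also reflect the spread at P5.

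The first comparison asks which miRNA genes differed between Tg1MDW/1MDW and WT at each age. The genes of the transgene were higher at both ages, and no other miRNA probeset differed by a factor of 2. A difference was called at an adjusted p under 0.05 in limma and a change of at least 2-fold. At P5, 3 of the 305 miRNA probesets were called, all higher, where 0.0978% of all probesets on the array were called. At P18 the same 3 were called, against a background of 0.170%. They are *Mir183*, *Mir96* and *Mir182*. A test is given for a genotype difference only where the gene reached the limit of 5 through the other age or in both genotypes of that age, and each of the 3 reached it in the Tg1MDW/1MDW samples of both ages.

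*Mir183* had log2 signals of 7.05, 7.06, 7.06, 5.97 and 6.37 in the P5 Tg1MDW/1MDW samples and 3.14, 3.50, 3.27, 3.57 and 3.48 in WT. At P18 it had 6.73, 6.40 and 6.43 in Tg1MDW/1MDW and 3.10, 2.99 and 3.05 in WT. The groups did not overlap, and all WT values lay under the lower quartile of the arrays. The log2 change was 3.31 at P5 (SE 0.18, adjusted p = 5.7e-08) and 3.47 at P18 (SE 0.24, adjusted p = 4.4e-07). *Mir96* had 8.64, 8.20, 8.51, 8.04 and 8.07 in P5 Tg1MDW/1MDW and 4.61, 4.88, 4.92, 5.10 and 4.94 in WT. At P18 it had 7.77, 7.80 and 7.91 against 4.41, 4.13 and 4.86. Again every Tg1MDW/1MDW array was above every WT array, by 3.40 at P5 (SE 0.14, adjusted p = 5.6e-09) and 3.36 at P18 (SE 0.18, adjusted p = 3.6e-08) between the means.

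*Mir182* had log2 signals of 8.64, 8.30, 8.31, 7.77 and 8.41 in P5 Tg1MDW/1MDW and 4.25, 4.68, 5.10, 4.66 and 5.46 in WT. At P18 the values were 7.96, 7.95 and 7.98 against 3.92, 3.83 and 3.89. Its log2 change was 3.46 at P5 (SE 0.19, adjusted p = 4.9e-08) and 4.09 at P18 (SE 0.24, adjusted p = 9e-08), which is 11-fold and 17-fold. In fold terms *Mir183* changed 9.91-fold and 11.1-fold at the 2 ages, and *Mir96* 10.6-fold and 10.3-fold. None of the 3 passed the test of a difference between the ages (log2 difference 0.63 for *Mir182*, adjusted p = 0.37, 0.16 for *Mir183*, adjusted p = 0.84, and -0.04 for *Mir96*, adjusted p = 0.96).

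Without the transgene, *Mir182* and *Mir96* were lower in the WT cochlea at P18 than in the WT OC at P5. *Mir182* fell by 0.95 on the log2 scale (SE 0.22, adjusted p = 0.0018) and *Mir96* by 0.42 (SE 0.16, adjusted p = 0.042), while *Mir183*, near the bottom of the scale in WT, had a change of -0.35 (SE 0.21, adjusted p = 0.2). In WT at P18 all *Mir182* values, and those of 4.41 and 4.13 for *Mir96*, also lay under the lowest lower quartile of 4.54. Of the 9 hair cell markers, 6 also fell between the ages in WT and 2 rose, where 30.2% of all probesets fell and 19.8% rose at an adjusted p under 0.05, and the part of hair cell content in the change of the cluster was not tested. In such samples fewer cells of a type and less RNA per cell cannot be told apart.

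**Figure D1:**
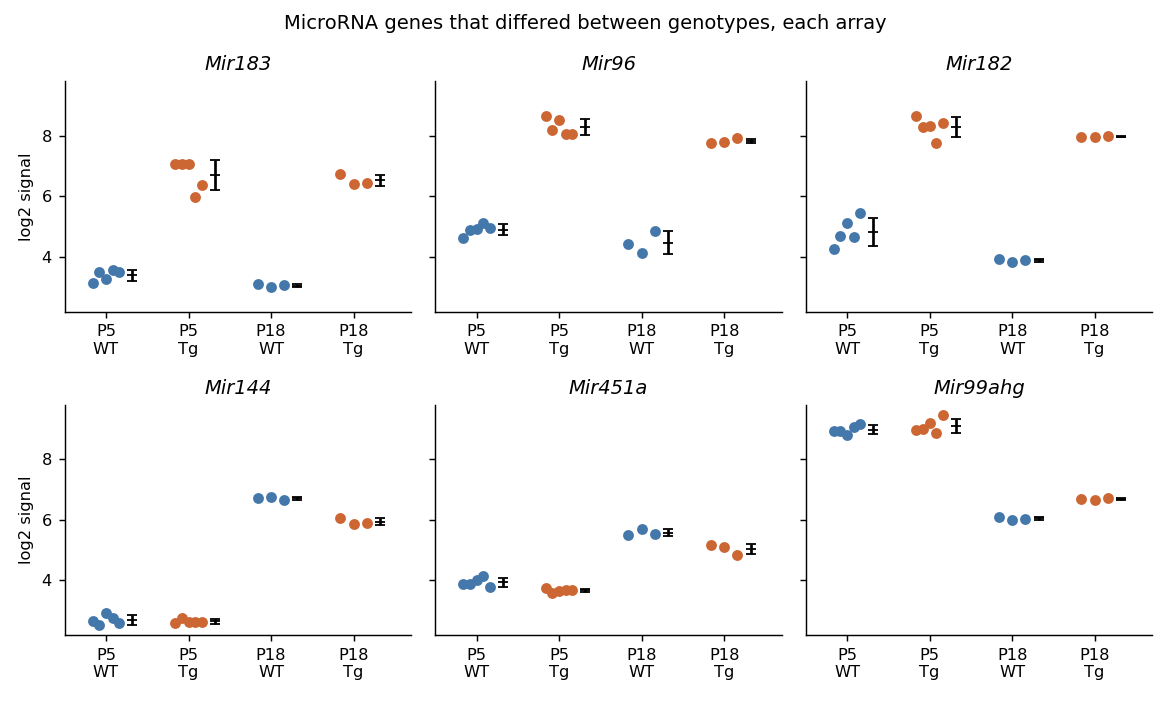
Log2 signal (y axis) of the 6 miRNA genes with an adjusted p under 0.05 between genotypes at P18, with 1 point per array by age and genotype and the group mean ± SD beside the points. The 3 genes of the transgene separate by genotype at both ages, *Mir144* and *Mir451a* are at least 4.85 only at P18 and lower there in Tg, and the *Mir99ahg* probeset shown is higher in Tg at P18.

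Outside the cluster, no miRNA gene passed the test at P5. The 161 other probesets had log2 changes from -0.39 to 0.66, and 154 of them lay within 0.5. Of these 161, 45 had an unadjusted p under 0.05, 43 of them higher in Tg1MDW/1MDW, while the smallest adjusted p was 0.059. The 161 include 6 that reached the limit of 5 only in P5 Tg1MDW/1MDW. The level that chose those 6 also enters these counts, which are therefore not read as a result. Over all 305 miRNA probesets 64 (21.0%) had an unadjusted p under 0.05, beside 16.4% of all probesets on the array. The smallest adjusted p outside the cluster was that of *Mir143*, a miRNA of smooth muscle and mesenchyme, named after its value was seen. It had 6.67, 6.57, 6.28, 6.53 and 7.14 in Tg1MDW/1MDW and 6.23, 6.04, 5.76, 6.07 and 6.01 in WT, a log2 change of 0.62 (SE 0.14, adjusted p = 0.059), with the groups just separate. *Mir145a*, which lies next to it, had a P5 change of 0.08.

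The miRNA probesets leaned slightly upward at P5. The median change was 0.04 over all 305, with 170 above 0, and -0.01 over all probesets on the array, of which 46.7% were above 0. Among the 164, a set picked by their levels, the median was 0.14 and 127 were above 0, whereas it was -0.07 among the 141 dim ones. The lean did not hold for every array: the median deviation of the 164 from their mean over the P5 samples was 0.11, 0.05, -0.11, 0.11 and 0.27 in the Tg1MDW/1MDW samples and -0.01, -0.15, -0.10, -0.02 and -0.13 in WT. The third Tg1MDW/1MDW sample thus lay among the WT values. The 10 X-linked probesets had changes between -0.21 and 0.31, with 7 of them above 0, beside 127 of the 164. The part of the sex imbalance in these shifts was not tested.

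At P18 3 more miRNA probesets passed at an adjusted p under 0.05 without the fold limit, making 6 of 305, where 0.443% of all probesets passed. At P5 that criterion gave 3 of 305, against 0.610% of all. The 3 added at P18 were *Mir144* and *Mir451a*, both lower in Tg1MDW/1MDW, and a probeset of *Mir99ahg*, which was higher. Over all 305, 24 (7.87%) had an unadjusted p under 0.05 at P18, beside 8.77% of all probesets, and the median change was -0.04, beside -0.02.

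*Mir144* and *Mir451a* are made from 1 primary transcript of red blood cell precursors, and miR-451a is known for being cut by Ago2 instead of Dicer1. *Mir144* had 6.06, 5.85 and 5.91 in P18 Tg1MDW/1MDW and 6.73, 6.76 and 6.65 in WT, with no overlap. It fell by 0.77 in log2 terms (SE 0.10, adjusted p = 0.00073). *Mir451a* had 5.16, 5.12 and 4.85 in P18 Tg1MDW/1MDW and 5.49, 5.70 and 5.53 in WT, a change of -0.53 (SE 0.11, adjusted p = 0.04). Both genes were thus lower on every Tg1MDW/1MDW array of P18, but the call for *Mir451a* was lost in 16 of 23 alternative fits, where its adjusted p reached 0.24.

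In the P5-OC neither gene reached the limit. *Mir144* lay between 2.53 and 2.93 on all 10 arrays and *Mir451a* between 3.60 and 4.15, and their changes there were -0.06 (SE 0.08, adjusted p = 0.72) and -0.26 (SE 0.08, adjusted p = 0.18). *Mir144* was the only miRNA probeset of the 305 whose genotype effect passed the test of a difference between the ages, where 0.596% of all probesets passed. The difference was -0.71 (SE 0.12, adjusted p = 0.011). It lost the call in 3 of 22 alternative fits, at adjusted p = 0.091 with a replicate block, 0.067 with a term for the Y-linked level and 0.056 without P18 Tg1MDW/1MDW replicate 2.

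Blood cell markers were measured beside this pair. All 6 of them rose between the ages in WT, by 2.99 for *Ptprc*, a surface protein of leukocytes, to 7.35 for *Ngp*, a neutrophil granule protein. None of the 6 passed between the genotypes at P18, with changes from -0.25 to -0.03 and a list mean of 10.91 to 10.96 in Tg1MDW/1MDW and 11.01 to 11.09 in WT. *Slc4a1*, the anion exchanger of red blood cells, had 11.94, 11.97 and 12 in P18 Tg1MDW/1MDW and 12.22, 12.23 and 12.22 in WT, which is a change of -0.25 (SE 0.27, adjusted p = 0.89). *Alas2*, the erythroid enzyme of heme synthesis, had 11.48, 11.52 and 11.51 against 11.63, 11.72 and 11.66, a change of -0.16 (SE 0.29, adjusted p = 0.95). Both erythroid markers were lower on every P18 Tg1MDW/1MDW array, without passing the test, in the direction of *Mir144* and *Mir451a*. The SE of that test pools all 4 groups, and most of the spread lay at P5. For *Slc4a1* the SD was 0.45 and 0.44 in P5 Tg1MDW/1MDW and WT, against 0.03 and 0.0 at P18. For *Alas2* it was 0.39 and 0.57 at P5, against 0.02 and 0.05 at P18. Whether the blood content of the cochleae plays a part was not tested.

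*Mir99ahg* is known as the host transcript of miR-99a and let-7c, and it has 4 probesets. The one that passed (10436590) had 6.69, 6.66 and 6.73 in P18 Tg1MDW/1MDW and 6.10, 6.01 and 6.04 in WT, a log2 change of 0.64 (SE 0.13, adjusted p = 0.044), without overlap. The call was lost in 14 of 24 alternative fits, with an adjusted p of up to 0.19. The other *Mir99ahg* probesets had changes of 0.46 (adjusted p = 0.26), 0.37 (adjusted p = 0.54) and -0.16 (adjusted p = 0.82), so they did not move as 1.

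The miRNAs of this transcript had similar values without passing. *Mir99a* had 5.94, 5.98 and 6.05 in P18 Tg1MDW/1MDW and 5.67, 5.38 and 5.63 in WT (log2 change 0.43, SE 0.18, adjusted p = 0.49). *Mirlet7c-1* had 4.41, 4.70 and 4.32 against 4.14, 3.78 and 3.98 (log2 change 0.51, SE 0.18, adjusted p = 0.35). At P5 the changes of *Mir99a* and *Mirlet7c-1* were -0.12 and 0.09.

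**Figure D2:**
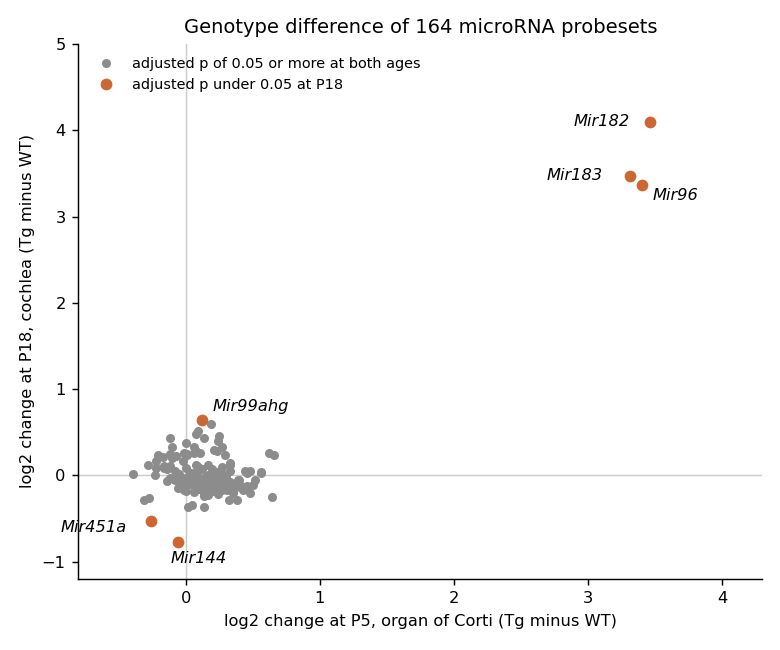
Log2 change between Tg1MDW/1MDW and WT at P5 (x axis) and at P18 (y axis), with 1 point for each of the 164 miRNA probesets. The transgene cluster lies above 3 on both axes, and the other 161 lie between -0.39 and 0.66 at P5 and between -0.77 and 0.64 at P18.

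Lists of miRNAs known from other cells were read next to the mRNA markers of those cells. Skeletal muscle markers were higher in P18 Tg1MDW/1MDW, with 9 of 10 passing and changes from 0.58 to 3.62, among them *Myh1*, a fast myosin heavy chain, at 3.44. None of the 7 muscle miRNA probesets passed at P18 and none was among the 164. Their changes lay between -0.16 and 0.09, and their highest signal on any array was 4.43. *Mir206*, a miRNA of skeletal muscle, had 2.80, 2.73 and 2.91 in P18 Tg1MDW/1MDW and 2.96, 2.80 and 2.89 in WT (log2 change -0.07, SE 0.11, adjusted p = 0.94), and *Mir133a-2* had 3.51, 3.74 and 3.53 against 3.61, 3.71 and 3.53 (log2 change -0.02, SE 0.14, adjusted p = 0.99). No difference was detected at these low signals.

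Markers of cerebellar granule cells were lower in P18 Tg1MDW/1MDW, with 7 of 8 passing and changes from -1.87 to 0.13. Their list mean was 6.08 to 6.10 on the Tg1MDW/1MDW arrays and 6.98 to 7.0 on the WT arrays. None of the 19 neuronal miRNA probesets passed at P18, where their changes lay between -0.26 and 0.48. *Mir124a-2*, a copy of the neuronal miR-124, had 5.36, 5.54 and 5.0 in P18 Tg1MDW/1MDW and 5.50, 5.33 and 5.60 in WT (log2 change -0.18, SE 0.14, adjusted p = 0.81), with overlapping groups. *Mir128-1* had a change of 0.23 (SE 0.13, adjusted p = 0.68) and *Mir212* of -0.11 (SE 0.15, adjusted p = 0.92).

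Glial and epithelial miRNAs gave no call between genotypes either. *Mir338*, a miRNA of myelinating glia that lies in *Aatk*, had 7.11, 6.72, 6.90, 7.11 and 7.19 in P5 Tg1MDW/1MDW and 7.08, 7.06, 7.08, 7.38 and 7.13 in WT. Its groups overlapped, with a change of -0.14 (SE 0.12, adjusted p = 0.57), whereas its host gene *Aatk* fell by 0.77 on the log2 scale (adjusted p = 0.0013). Of the 5 Schwann cell markers 3 fell at P5, *Mag* by 2.23, *Mbp* by 1.03 and *Pmp22* by 0.96. *Mir200a*, *Mir200b* and *Mir200c*, of epithelia, had P5 changes of 0.07, -0.06 and 0.30 and P18 changes of 0.03, -0.15 and -0.16.

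The second comparison sets the P18 cochlea against the P5-OC in WT. The miRNA genes were mostly lower at P18: 45 of the 305 probesets fell by at least 2-fold at an adjusted p under 0.05, where 11.5% of all probesets did, and 2 rose by that much, where 5.50% of all did. The shares of the 305 were 14.8% for falls and 0.656% for rises. Without the fold limit 155 fell, where 30.2% of all probesets did, and 8 rose, where 19.8% of all did. The median log2 change was -0.34 over the 305 and -0.06 over the whole array. Array medians and lower quartiles were lower at P18 too, as given above. With quantile normalization 38 miRNA probesets were called between the ages in WT, beside 47 without it, falls and rises together. The part of the array-wide shift in the falls was not tested further. Of the 45 falls, 42 were among the 164 probesets of the rule and 3 were under its limit. For members that reached 5 only at P5 or only at P18, the level that chose them also enters this contrast, so the counts are over the 305.

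In Tg1MDW/1MDW, the other set of samples, 54 miRNA probesets fell by 2-fold between the same ages and 2 rose. Of the 45 that fell in WT, 43 fell by 2-fold there too, and the other 2 passed with a smaller fall. The 2 that rose in WT, *Mir144* and *Mir451a*, were those that rose in Tg1MDW/1MDW.

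The largest fall among the 164 was that of *Mir204*, known from epithelia such as those of the retina and choroid plexus. It had log2 signals of 8.92, 9.25, 9.23, 9.06 and 9.11 in WT at P5 and 5.53, 5.63 and 5.55 at P18, a fall by 3.55 (SE 0.13, adjusted p = 6.3e-12). In Tg1MDW/1MDW it fell by 3.14. *Mir218-1*, a miRNA of motor neurons that lies in *Slit2*, had 8.33, 8.40, 8.39, 8.67 and 8.76 at P5 and 5.36, 5.46 and 5.30 at P18, a change of -3.14 (SE 0.12, adjusted p = 8.3e-12). Its other copy, *Mir218-2* in *Slit3*, changed by -0.67 (SE 0.14, adjusted p = 0.00072).

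*Mir181b-1*, from a family known in lymphocytes and neurons, had 9.16, 9.50, 8.40, 8.86 and 8.97 at P5 and 6.15, 5.57 and 6.05 at P18 in WT, a change of -3.05 (SE 0.21, adjusted p = 8.7e-09). The 6 genes that share the miR-181 seed printed above ranged from -3.05 to -0.18. *Mir181b-2* changed by -2.93, *Mir181a-2* by -2.16, *Mir181a-1* by -1.63 and *Mir181c* by -1.12, all passing, and *Mir181d* had -0.18 (SE 0.17, adjusted p = 0.4). *Mir200b* had 7.0, 7.56, 7.35, 7.46 and 7.43 at P5 and 4.42, 4.64 and 4.09 at P18, which is -2.98 (SE 0.18, adjusted p = 1.4e-09). *Mir200a* changed by -1.54 (adjusted p = 2.8e-08) and *Mir200c* by -0.94 (adjusted p = 2.2e-05). *Mir200b*, *Mir200c* and *Mir181a-1* are among the 164 only through their P5 signals, which also enter this contrast. The same holds for *Mir218-2*, *Mir100*, *Mirlet7a-2*, *Mir125b-1*, *Mirlet7c-1*, *Mir140*, *Mir329*, *Mir106b* and *Mir107*, whose falls are given above or below. Whatever their level, all 4 probesets of the miR-200 family fell, with changes from -2.98 to -0.59.

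The host transcripts *Mir100hg* and *Mir99ahg* fell, as did the miRNAs measured from each. *Mir100hg*, host of *Mir100*, *Mirlet7a-2* and *Mir125b-1*, had 9.93, 9.97, 9.80, 10.02 and 10.20 in WT at P5 and 7.31, 7.37 and 7.15 at P18, a change of -2.71 (SE 0.10, adjusted p = 4.5e-12). *Mir100* changed by -2.51, *Mirlet7a-2* by -2.13 and *Mir125b-1* by -1.52, all with adjusted p of at most 2.2e-05. *Mirlet7c-1* had 6.62, 7.02, 6.83, 6.58 and 7.05 at P5 and 4.14, 3.78 and 3.98 at P18 (log2 change -2.86, SE 0.16, adjusted p = 5.5e-10), and its neighbour *Mir99a* changed by -2.84 (SE 0.16, adjusted p = 7e-10). Mature let-7 miRNAs are known for rising as cells differentiate. Of the 10 let-7 probesets none rose and 8 fell, with changes from -2.86 to -0.08. *Mirlet7i* had the smallest change among those at the limit, -0.24 (SE 0.11, adjusted p = 0.087).

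Of the 10 largest falls in WT, 9 had a positive genotype change at P18, from -0.15 to 0.64 over the 10, for example 0.59 for *Mir204* (SE 0.15, adjusted p = 0.13) and 0.48 for *Mir218-1* (SE 0.13, adjusted p = 0.18). Both comparisons use the P18 WT arrays, so these values are not separate evidence, and of the 10 only the *Mir99ahg* probeset passed.

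**Figure D3:**
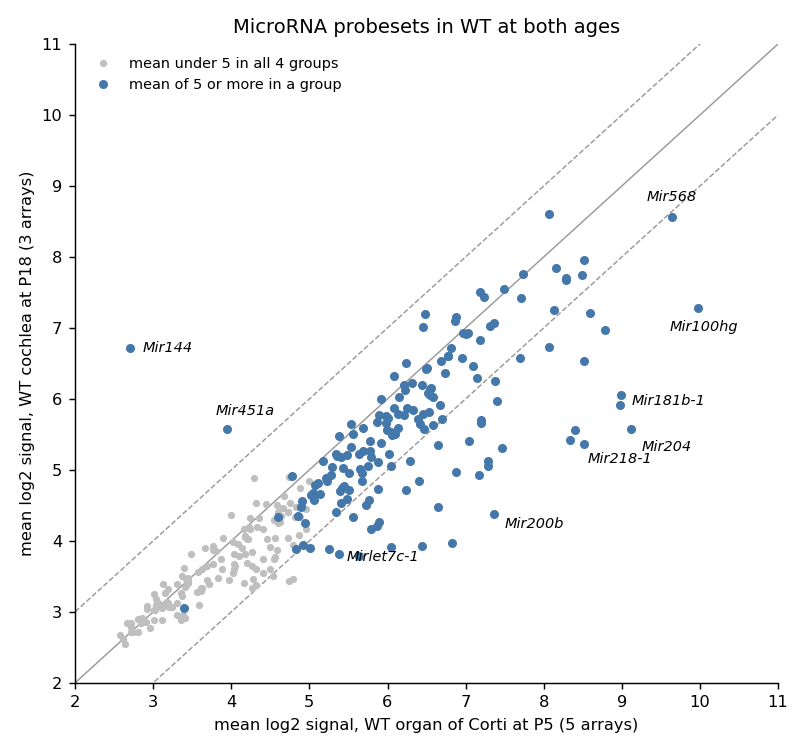
Mean log2 signal of the 305 miRNA probesets in the WT OC at P5 (x axis) and the WT cochlea at P18 (y axis), with the line of equality and dashed lines at a change of 1. Blue points reached a mean of 5 in some group, and 45 probesets fell by 2-fold with an adjusted p under 0.05 while *Mir144* and *Mir451a* rose.

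Few genes were higher in the cochlea at P18. *Mir144* rose by 4.01 in WT (SE 0.09, adjusted p = 2.2e-14) and *Mir451a* by 1.64 (SE 0.09, adjusted p = 9.5e-10), beside the rise of all 6 blood cell markers. *Mir219a-1*, a miRNA of oligodendrocytes, had 6.85, 6.33, 6.56, 6.53 and 6.13 at P5 and 7.27, 7.07 and 7.26 at P18, a rise of 0.72 (SE 0.13, adjusted p = 0.0002). Its other copy, *Mir219a-2*, changed by 0.11 without passing. *Mir212*, a neuronal miRNA induced by activity, rose by 0.54 (SE 0.13, adjusted p = 0.0027), and *Mir6516* by 0.32 (SE 0.09, adjusted p = 0.0097). *Mir144*, *Mir451a*, *Mir219a-1*, *Mir212* and *Mir6516* were the only members that rose at an adjusted p under 0.05, beside 8 of the 305 miRNA probesets of any level. *Mir144* and *Mir451a* are members only through their P18 signals, which also enter this contrast. Of the 8 neuron markers, 5 rose between the ages in WT and 1 fell.

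Other miRNA lists were read against the array as a whole, on which 30.2% of all probesets fell and 19.8% rose between the ages. In the imprinted *Dlk1-Dio3* region, which holds a large miRNA cluster expressed from the maternal chromosome, 22 of 39 probesets fell and none rose, with a median of -0.42. *Mir679* changed by -1.63 (SE 0.15, adjusted p = 2.4e-07) and *Mir329* by -1.55 (SE 0.13, adjusted p = 6.9e-08), while *Mir666* had 0.28 (SE 0.12, adjusted p = 0.069). Of 7 mesenchymal probesets 5 fell, among them *Mir140*, a miRNA of cartilage, by 1.56 (SE 0.17, adjusted p = 1.8e-06) and *Mir143* by 0.79 (SE 0.16, adjusted p = 0.00054). Of 19 neuronal probesets 7 fell, a share near that of the array, and 1 rose. In the list of blood and endothelial miRNAs 3 of 8 rose and 2 fell, *Mir150* of lymphocytes by 0.42 (SE 0.13, adjusted p = 0.016). Of 13 probesets of the growth-associated miR-17-92 cluster and its paralogues 5 fell, again near the share of the array, and 1 rose.

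Changes between the ages were also set side by side for genes that lie together, and their size often differed within a group. With neighbours taken as genes no more than 50000 bases apart in the RefSeq assembly, 75 of the 164 formed 23 groups, of which 13 were pairs. In 22 of the groups all changes had the same sign, but 89.6% of the 164 probesets had a negative change, so that count says nothing particular about neighbours. *Mir181a-2* and *Mir181b-2* changed by -2.16 and -2.93, and *Mir145a* and *Mir143* by -0.70 and -0.79. In the group of *Mir99b*, *Mirlet7e* and *Mir125a* the range was wider, from -1.50 to -0.09. Probesets of 1 precursor region differ in how well they hybridise, so their levels were not compared with each other.

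**Figure D4:**
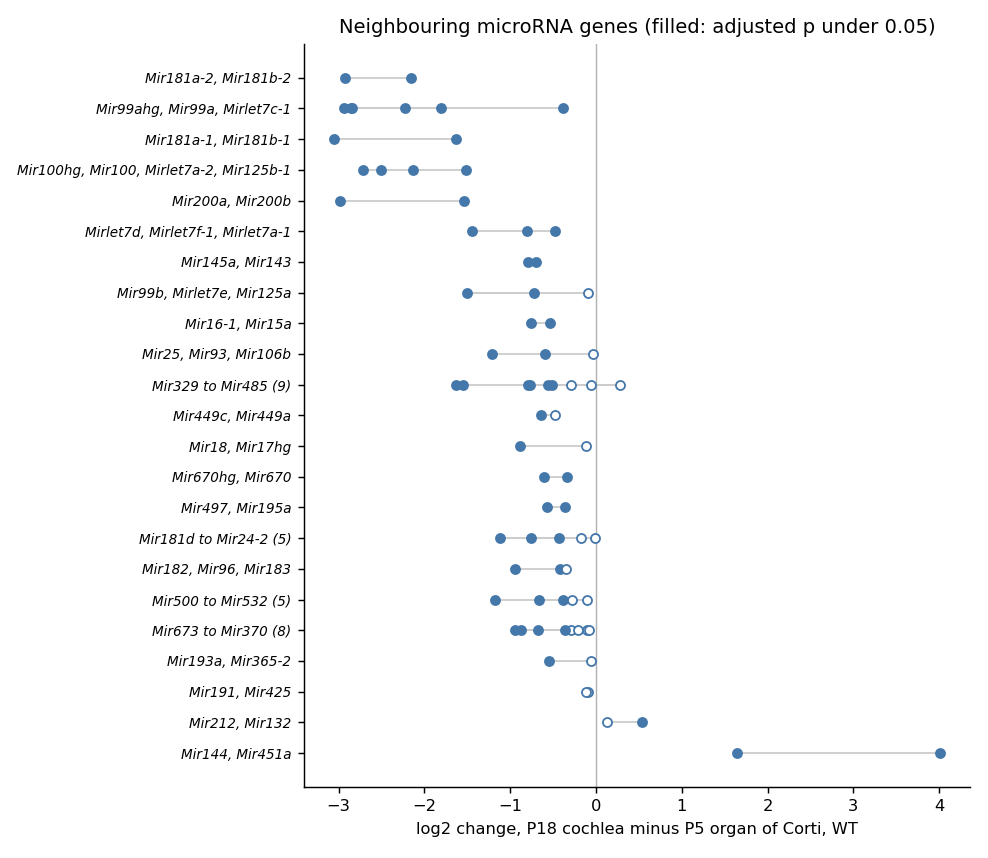
Log2 change between the P18 cochlea and the P5-OC in WT (x axis) for the 75 probesets in 23 groups of neighbouring miRNA genes, with 1 row per group and filled points for an adjusted p under 0.05. The groups of *Mir99ahg*, *Mir100hg*, *Mir181* and *Mir200* reach -2.71 to -3.05, and *Mir144* and *Mir451a* lie furthest to the right, at 4.01 and 1.64. The pair of *Mir212* and *Mir132* is the other group with only positive changes, from 0.13 to 0.54.

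Many miRNAs lie in introns of protein-coding genes and can be cut from the transcript of that host. Of a list of such pairs, 30 with 27 hosts were measured, each miRNA lying inside its host in the RefSeq assembly. For 3 of the hosts no strand was read, and 1 listed pair on opposite strands, *Mir199a-1* and *Dnm2*, was left out. Between the ages in WT, 18 of the 30 pairs changed with the same sign. Both partners passed in the same direction in 12 pairs and in opposite directions in 4. The Pearson correlation of the changes was 0.42 over the 30 pairs, which are not independent since some share a host and all share the arrays. *Mir204* (-3.55) and its host *Trpm3*, a cation channel gene (-2.28, SE 0.07, adjusted p = 1.7e-12), fell together, as did *Mir455* (-1.13, SE 0.10, adjusted p = 1.5e-07) and *Col27a1*, a cartilage collagen gene (-1.31, SE 0.08, adjusted p = 3.4e-09). *Mir218-1* changed by -3.14 and *Slit2*, a guidance factor gene, by -0.30 (SE 0.07, adjusted p = 0.0025).

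Other pairs went apart. *Mcm7*, which encodes a subunit of the replicative helicase, rose by 1.53 (SE 0.10, adjusted p = 3.3e-09), while in its intron *Mir106b* fell by 1.21 (SE 0.11, adjusted p = 2.1e-07), *Mir93* by 0.59 (SE 0.12, adjusted p = 0.00095) and *Mir25* had -0.04 (SE 0.12, adjusted p = 0.82). The 4 opposite pairs, named after their values were seen, were *Mir106b* and *Mir93* with *Mcm7*, *Mir107* with *Pank1* and *Mir26a-1* with *Ctdspl*. *Mir107* changed by -1.16 (SE 0.14, adjusted p = 3.9e-06) and *Pank1*, an enzyme of coenzyme A synthesis, by 0.69 (SE 0.09, adjusted p = 7.6e-06). *Mir7-1* changed by -0.58 in *Hnrnpk* (-0.07), *Mir483* by -0.37 in *Igf2* (-1.23), *Mir346* by -0.31 in *Grid1* (-1.76) and *Mir139* by 0.06 in *Pde2a* (1.39). Between genotypes, *Aatk* was the only host that passed at P5 and none passed at P18.

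**Figure D5:**
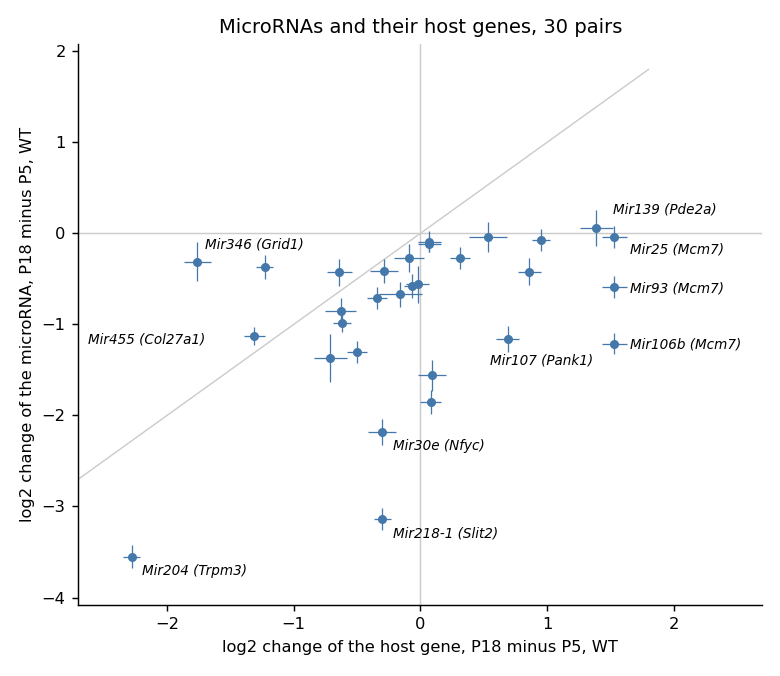
Log2 change of 30 miRNA genes (y axis) against that of the gene each lies in (x axis), P18 cochlea minus P5-OC in WT, with bars of 1 standard error and a line of equality. *Mir204* and *Trpm3* fell together, whereas *Mcm7* rose by 1.53 with its 3 miRNAs between -1.21 and -0.04.

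The genes that make and use miRNAs did not differ between genotypes by the test. Of 29 measured genes of miRNA processing, export, loading and decay, none passed at P5 or P18, with changes from -0.25 to 0.24 and from -0.28 to 0.29. *Drosha*, the nuclear nuclease, had 0.02 at P5 (adjusted p = 0.9) and -0.02 at P18 (adjusted p = 0.98), and *Dgcr8*, its RNA-binding partner, had -0.18 (adjusted p = 0.32) and 0.00 (adjusted p = 1). *Dicer1* had -0.09 (adjusted p = 0.59) and 0.19 (adjusted p = 0.67), *Xpo5*, the exporter, -0.05 (adjusted p = 0.7) and 0.02 (adjusted p = 0.99), and *Ago2* -0.15 (adjusted p = 0.39) and -0.27 (adjusted p = 0.49).

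Between the ages in WT, 18 of the 29 fell, where 30.2% of all probesets did, and 4 rose, where 19.8% of all did. *Dicer1* fell by 0.75 (SE 0.09, adjusted p = 6.4e-06), *Drosha* by 0.52 (SE 0.08, adjusted p = 5.5e-05) and *Dgcr8* by 0.30 (SE 0.10, adjusted p = 0.021). *Ago1*, *Ago3* and *Ago4* changed by -0.59, -0.66 and -0.66, while *Ago2*, the Argonaute that can cut RNA, rose by 0.33 (SE 0.10, adjusted p = 0.011). The other genes that rose were *Xpo5* by 0.22 (SE 0.07, adjusted p = 0.023), *Ran*, the GTPase of nuclear transport, by 0.82 (SE 0.09, adjusted p = 1.9e-06) and *Lin28a* by 0.36 (SE 0.11, adjusted p = 0.015). *Lin28b*, which blocks let-7 maturation, fell by 0.98 (SE 0.18, adjusted p = 0.00021), and *Tut4*, which adds uridines to let-7 precursors, by 1.05 (SE 0.08, adjusted p = 4.3e-08). Of the let-7 probesets, 8 of 10 fell in these samples, as given above. The array does not read mature miRNAs, so none of the values above is a level of let-7 or of any other mature strand.

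Other miRNA probesets with high means over the arrays varied without a call between genotypes. *Mir568* had 10.86, 10.56, 8.65, 10.48 and 10.97 in P5 Tg1MDW/1MDW and 10.50, 10.03, 9.83, 8.87 and 8.98 in WT, so the groups overlapped (log2 change 0.66, SE 0.38, adjusted p = 0.39). *Mir680-3* had 9.24, 9.06, 8.49, 9.28 and 9.49 against 8.87, 8.43, 8.78, 8.40 and 8.47 (log2 change 0.52, SE 0.16, adjusted p = 0.17). *Mir692-1* changed by 0.36 (SE 0.21, adjusted p = 0.39), *Mir667* of the *Dlk1-Dio3* region by 0.30 (SE 0.13, adjusted p = 0.27) and *Mir15a*, a repressor of cell cycle genes, by -0.12 (SE 0.10, adjusted p = 0.51). At P18 the changes of these 5 genes lay between -0.16 and 0.25.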

How the data were processed

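The authors deposited normalized log2 signals of MoGene 1.0 arrays, 1 per sample. limma is named in the sources, whereas the background correction and normalization are not given in the sources used here, and no further normalization was applied. Probesets were named from the platform table. The platform table and the study's lists give the names *Mir96* and *Mir182* to each other's probeset, and the platform table, whose order matches RefSeq, was followed. All 16 arrays entered 1 fit with 4 group means (limma 3.58.1, R 4.3.3, functions lmFit and eBayes, with 12 residual degrees of freedom and a prior of 3.23). The fit was tested on simulated data. Two-sided p-values were adjusted by Benjamini and Hochberg over all 34760 probesets. For the age difference of the genotype effect no fold limit was set. Where a gene had several probesets, the one with the highest mean stood for markers and processing genes, and a host was read by the probeset numbered nearest to that of its miRNA, since probeset numbers run along the genome.

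The miRNA rule, the lists and the tests were chosen with earlier results of these data known. Genes named are the cluster, those passing between genotypes, those with the 6 highest means, the 10 largest falls and rises between ages, up to 4 per list and the host pairs with the 8 highest means, and others are said to be chosen later. Alternatives were a replicate block, separate fits, a filter on dim probesets, quantile normalization, other variance models, array weights, the Y-linked level, a term for P5 replicates 1 and 2, other limits on the fold change and leaving out each array. They were extended to single genes outside the cluster after seeing the data. Plots used Python 3.11.15 and matplotlib 3.10.9.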

Additional observations from a re-analysis of the deposited data

Results flagged for a closer look

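Among 13 genes with values given above, tested in both P5 groups (26 groups of 5 arrays), 3 arrays lay apart from the other arrays of their group by Dixon's criterion, where chance gives about 1 in 20 groups. *Mir568* was 8.65 in P5 Tg1MDW/1MDW replicate 3, below the other 4. *Mirlet7c-1* was 7.39 in P5 Tg1MDW/1MDW replicate 5, above the others. *Mir144* was 2.77 in P5 Tg1MDW/1MDW replicate 2, above the others, at signals where the gene is hardly detected. The genotype effect of *Mir144* differed between the ages by -0.71 on the log2 scale (adjusted p = 0.011, limma), lower in 3 of 3 Tg1MDW/1MDW arrays at P18.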

How the results depend on the processing

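Calls at P5 and P18 stayed at 3 to 4 in the other fits, with these exceptions. Without the dimmest 50% of probesets, which removes the cluster itself, there were 0 calls at P5, 0 at P18, 0 for the difference between ages and 20 between ages in WT. Without a fold limit there were 6 at P18 and 163 between ages, and at 1.5-fold 5 and 98. For the difference between ages, where 1 probeset passed, the count was 0 with a replicate block, 0 with the Y-linked level, 23 with array weights, and 0 to 4 when single arrays were left out (0 without P18 Tg1MDW/1MDW replicate 2, 4 without P5 Tg1MDW/1MDW replicate 3). Quantile normalization gave 38 calls between ages in WT, beside 47 in the main fit. Leaving out single arrays gave 3 to 4 calls at P5, 3 at P18 and 46 to 51 between ages. The causes of these shifts were not tested beyond the construction named.

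Same-numbered samples deviated together in only some pairs (r from -0.224 to 0.36 at P5 and 0.000429 to 0.0686 at P18, above 0.1 in 3 of 8 pairs, all at P5), and 3 of the 8 Tg1MDW/1MDW arrays correlated best with the WT array of their number. The numbers were therefore not taken as pairs, though a partial pairing at P5 cannot be told from these values. With the replicate block there were 3 calls at P5, 3 at P18 and 45 between ages, and the log2 changes of *Mir183*, *Mir96* and *Mir182* at P5 were 3.31, 3.40 and 3.46. Over all alternatives these genes changed by 3.22 to 3.80 at P5 and 3.15 to 4.11 at P18, passing wherever they were tested. No named gene tested changed direction. Signals near the bottom of the scale limit what can be seen of 109 miRNA probesets.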
